A study of Mus musculus with 31 samples.

Results

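The masseter muscle (MM) of mice was compared between a late time after injection of 10U of collagenase type 2 (Col), an enzyme preparation that cuts collagen, and 6d after the same injection. The late group holds 4 mice, labelled 12d post-Col, and the 6d group holds 3 mice, which makes 7 of the 31 libraries of the series. The mice of both groups were taken by their titles, and the choice of groups was made with earlier results of these data known. All 7 were wild-type males of the strain C57BL/6J aged 2 to 4 months, without a transgene, and each gave 1 library from the MM of the injected left side. The text of the study gives 14d for the late group, and the 12d of the labels is used here. Both groups received the same agent at the same dose and are labelled with different times since injection. Their titles follow different schemes and do not say whether the groups were dissected and prepared together. Time and any difference in handling cannot be told apart. As a background level, 3 vehicle-treated mice of the Col experiment are described beside them without a test, because the vehicle libraries were not counted in quite the same way. Reads that overlapped more than 1 gene made up 0.1469% to 0.198% of the uniquely placed reads in the vehicle group, against 0.6026% to 0.6884% at 6d and 0.6414% to 0.7029% at 12d. The study chose 6d within the period of facial mechanical hypersensitivity and the late time after it, and the comparison asks how the muscle transcriptome differs between these times.

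Skeletal muscle repairs itself from satellite cells, which are stem cells that lie along the fibre. They divide, leave the cell cycle and fuse into new fibres, and a young fibre carries embryonic forms of myosin and of the acetylcholine receptor until it matures and is innervated. Macrophages clear debris and then accompany the rebuilding, while fibroblasts lay down a temporary matrix that is later remodelled. The libraries were made from whole dissected muscle, in which fewer cells of a type and less RNA per cell cannot be told apart.

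Reads counted on genes ranged from 14843778 to 19759399 at 12d and from 18063685 to 21951332 at 6d. Levels are given as CPM, counts scaled to the reads on genes of each library with the TMM method of edgeR, for the mice in the order of their replicate numbers. Muscle actin Acta1 was counted at 9680 to 16600 CPM at 6d and at 13100 to 33000 CPM at 12d, and it or the calcium pump Atp2a1 was the most counted gene in each of the 7 libraries. Replicate 4 of the 12d group stood apart from the other 3 mice of its group. On the first principal component, which held 73.7% of the variance, it lay at 19.7, the other 12d mice lay between -73.4 and -56.5, and the 6d mice lay between 37.5 and 84.6. Its correlation of log2 CPM was 0.928 to 0.949 with the mice of its own group and 0.943 to 0.961 with the 6d mice. Results are therefore given with all 7 libraries and, where this changes them, without 12d replicate 4.

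**Figure D1:**
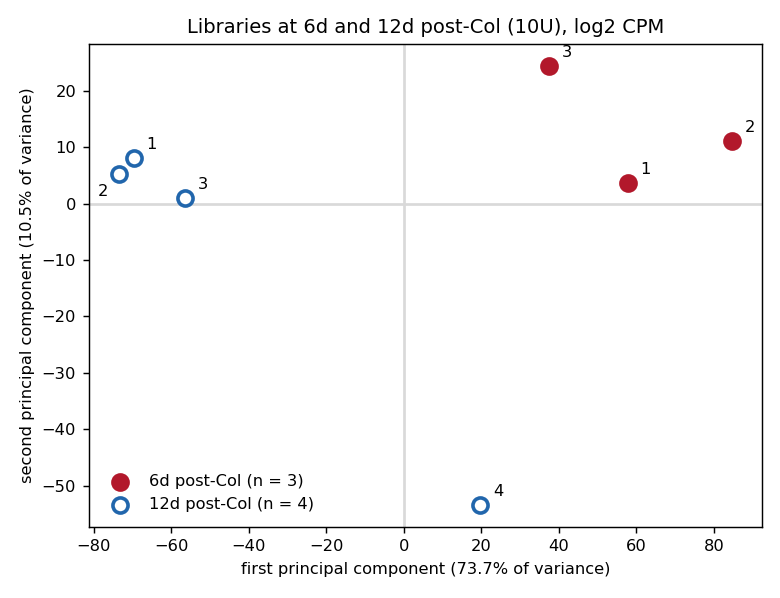
The 7 libraries on the first (73.7% of the variance) and second (10.5%) principal components of log2 CPM, both without units, with 1 point per mouse, numbered by replicate, filled for 6d and open for 12d. Replicates 1 to 3 of the 12d group lie at the left, the 6d mice at the right, and 12d replicate 4 lies at 19.7 on the horizontal and at -53.4 on the vertical axis, away from both.

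Of 14344 genes tested with edgeR's quasi-likelihood test, 681 (4.75%) were higher and 757 (5.28%) were lower at 12d, where a gene passed if its adjusted p was below 0.05, it differed by more than 2-fold and its mean RPKM (reads scaled to gene length and library size) exceeded 1 in either group. Together they were 1438 genes, or 10.0% of those tested. The smallest adjusted p was 0.00553, and 6317 genes had an unadjusted p under 0.05. Without 12d replicate 4 the counts were 1089 (7.59%) higher and 1656 (11.5%) lower. List counts given below without this mouse stand beside these larger shares. Of the 1438 genes, 1423 also passed in the same direction without this mouse, which is 99.0% of the calls with 7 libraries and 51.8% of the 2745 calls without it. The counts moved with other mice too. They were 253 and 220 without 12d replicate 1, 268 and 232 without replicate 2, 210 and 197 without replicate 3, 302 and 346 without 6d replicate 1, 62 and 71 without 6d replicate 2, and 517 and 482 without 6d replicate 3. Of the 125 genes named in the text that passed with 7 libraries, 56, 61, 48 and 123 also passed without 12d replicates 1, 2, 3 and 4, and 55, 14 and 82 without 6d replicates 1, 2 and 3. Whether the counting used the strand of the reads is not given in the sources used here, so for genes that overlap another gene on the opposite strand the reads of both cannot be told apart. Among the genes named here that belong to a gene list these are Acta1, Adam8, Angptl7, Ccl2, Ccl27a, Col1a1, Col22a1, Csf1r, Esm1, Fbxo32, Gadd45a, Gdf5, H2-Aa, Hk1, Hk2, Il1b, Ltbp2, Mbp, Melk, Mpo, Myh1, Myh2, Ncam1, Ndufa2, Pecam1, Phkg1, Plin4, Pln, Prx, Ryr1, Scx, Timp1, Timp4, Tnc, Top2a, Trp63 and Uqcrb. Named genes outside the lists, such as Ear5, Orm2, Stac2, Gal and Obp1a, were not checked for such an overlap. All 4 mice at 12d lay above all 3 mice at 6d for 2615 genes (18.2%), and below them for 2651 genes (18.5%).

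For genes called without 12d replicate 4, this mouse was placed between the mean of the other 12d mice, set to 0, and the mean of the 6d mice, set to 1, on the log2 scale. Its median place was 0.563 for the 1089 higher genes and 0.75 for the 1656 lower genes, and for 81.0% of the lower genes it lay nearer to the 6d mean. Genes chosen for a gap between the other mice tend to place any mouse left out away from 0. The same place was not taken for the other 12d mice, so the size of this shift is not known. Among the 1438 genes called with 7 libraries, the median of 12d replicates 1 to 3 lay within the range of the 3 vehicle mice for 58.4% of the higher and 59.4% of the lower genes. The median of the 6d mice did so for 12.0% and 6.21%, and 12d replicate 4, a single mouse, for 35.1% and 35.5%. A single value can fall outside a range more easily than a median, so the shares of replicate 4 and of the medians are not comparable. The genes had also been chosen for a difference between 6d and 12d.

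Genes of young, regenerating fibres fell between 6d and 12d. The embryonic myosin heavy chain Myh3, on chr11 of build mm9, stood at 884, 946 and 509 CPM at 6d and at 9.38, 18.6, 17.9 and 182 CPM at 12d, and at 18.3 to 25.8 CPM in the vehicle mice. The groups did not overlap, and 12d replicates 1 to 3 lay within or below the vehicle range while replicate 4 lay between the groups (log2 fold change -3.80, SE 1.02, adjusted p = 0.0335, and -5.67 without 12d replicate 4, where adjusted p = 0.000328). Myog, the transcription factor that commits myoblasts to form fibres, stood at 241, 303 and 211 CPM at 6d and at 12.6, 11, 23.1 and 101 CPM at 12d (log2 fold change -2.78, SE 0.75, adjusted p = 0.034, and -4.01 without 12d replicate 4). All 4 late mice were below all 6d mice, and again replicate 4 was the highest of its group. Of the 35 tested genes of satellite cells, myoblasts and fusion, 8 were lower and 2 were higher. Their median log2 fold change was -0.67, and that of all genes tested was 0.003. With 7 libraries 28.6% of the list passed, beside 10.0% of all genes tested. Without replicate 4, 16 were lower and 2 higher. Pax7, which marks satellite cells, fell from 6.93–8.99 CPM to 2.54–4.13 CPM (log2 fold change -1.29, SE 0.21, adjusted p = 0.0112). Ncam1, an adhesion molecule of satellite cells and of fibres without a nerve, fell from 152, 194 and 121 CPM to 15.7, 15.3, 17 and 60.1 CPM (log2 fold change -2.53, SE 0.51, adjusted p = 0.017, and -3.28 without 12d replicate 4). The imprinted non-coding RNA H19, abundant in developing muscle, stood at 5160, 6930 and 4360 CPM at 6d and at 357, 287, 653 and 1590 CPM at 12d (log2 fold change -2.93, SE 0.60, adjusted p = 0.0177, and -3.66 without 12d replicate 4), without overlap. The early myogenic factors Myf5 (3.65 to 6.92 CPM at 6d, 2.86 to 7.44 CPM at 12d) and Myod1 (102 to 135 and 56.5 to 123 CPM) overlapped between the groups and did not pass, with adjusted p of 0.635 and 0.548.

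Genes of 4 subunits of the muscle acetylcholine receptor fell, and the subunit that replaces gamma is not reported here. The receptor is a ring of subunits at the neuromuscular junction, in which the gamma subunit of fetal and denervated fibres is replaced by another as the junction matures. Chrng, which encodes the gamma subunit, stood at 101, 213 and 122 CPM at 6d and at 0.689, 0.268 and 1.02 CPM in 12d replicates 1 to 3, where vehicle mice had 0.102 to 0.278 CPM. In replicate 4 it was 16.5 CPM, and the log2 fold change was -4.97 (SE 1.19, adjusted p = 0.0248) with and -7.74 (adjusted p = 0.00031) without this mouse. Chrna1 went from 303, 611 and 466 CPM to 25.9, 24.5, 29.8 and 105 CPM (log2 fold change -3.32, SE 0.57, adjusted p = 0.0128, and -4.11 without 12d replicate 4). Chrnd went from 76.8, 218 and 165 CPM to 9.49, 11.2, 11.7 and 34.2 CPM (log2 fold change -3.21, SE 0.53, adjusted p = 0.012, and -3.83 without 12d replicate 4) and Chrnb1 from 105, 154 and 175 CPM to 35.1, 33.3, 34.4 and 73.3 CPM (log2 fold change -1.71, SE 0.31, adjusted p = 0.0145). On build mm9 these genes lie at chr1:89102386-89108410 (Chrng), chr2:73401272-73418395 (Chrna1), chr1:89087227-89096644 (Chrnd) and chr11:69597538-69609445 (Chrnb1). In each of these 4 genes the groups did not overlap, and replicate 4 was the highest of the 12d mice. Of the 21 tested genes of the junction, 10 were lower and 0 were higher (median log2 fold change -1.0). The share of the list that passed with 7 libraries was 47.6%, beside 10.0% of all genes tested. Without replicate 4 the counts were 11 and 1.

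Promoters are shown for 3 of the 4 receptor subunits given above, without Chrnd, and for Myog. Myogenic factors such as the Myog protein bind the E-box, spelled CANNTG. The genes were chosen from those that passed, so their common direction follows from the choice. Whether Myog regulates them here was not tested. The sequences are the 160 bases before the start of the gene on its own strand, from RefSeq on build GRCm38.p6, 5′ to 3′, with each E-box in capitals. The motif reads the same way on both strands. The windows are chr2:73580339-73580498 (minus strand) for Chrna1, chr11:69795938-69796097 (minus strand) for Chrnb1, chr1:87205651-87205810 (plus strand) for Chrng and chr1:134289844-134290003 (plus strand) for Myog.
Chrna1: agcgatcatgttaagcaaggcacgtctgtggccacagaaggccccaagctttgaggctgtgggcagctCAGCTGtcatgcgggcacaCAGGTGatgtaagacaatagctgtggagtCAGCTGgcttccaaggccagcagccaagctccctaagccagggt
Chrnb1: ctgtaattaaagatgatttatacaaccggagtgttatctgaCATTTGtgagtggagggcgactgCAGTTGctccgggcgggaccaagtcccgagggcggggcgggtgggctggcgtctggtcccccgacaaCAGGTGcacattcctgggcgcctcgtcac
Chrng: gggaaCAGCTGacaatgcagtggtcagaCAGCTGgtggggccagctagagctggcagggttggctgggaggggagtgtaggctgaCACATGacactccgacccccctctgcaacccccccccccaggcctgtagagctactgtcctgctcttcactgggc
Myog: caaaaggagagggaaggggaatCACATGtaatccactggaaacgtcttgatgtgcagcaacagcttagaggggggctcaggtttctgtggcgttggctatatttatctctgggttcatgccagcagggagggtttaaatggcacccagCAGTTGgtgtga
The windows of the 3 subunits hold 3 E-boxes each, and that of Myog holds 2. In Chrna1 and in Chrng, 2 of the 3 are spelled CAGCTG. Among 32851 windows of the same length in the table, 49.8% hold at least 1 E-box, 17.0% at least 2 and 4.43% at least 3, and 0.63% hold at least 2 copies of CAGCTG. A match describes these letters and not a bound site.

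**Figure D2:**
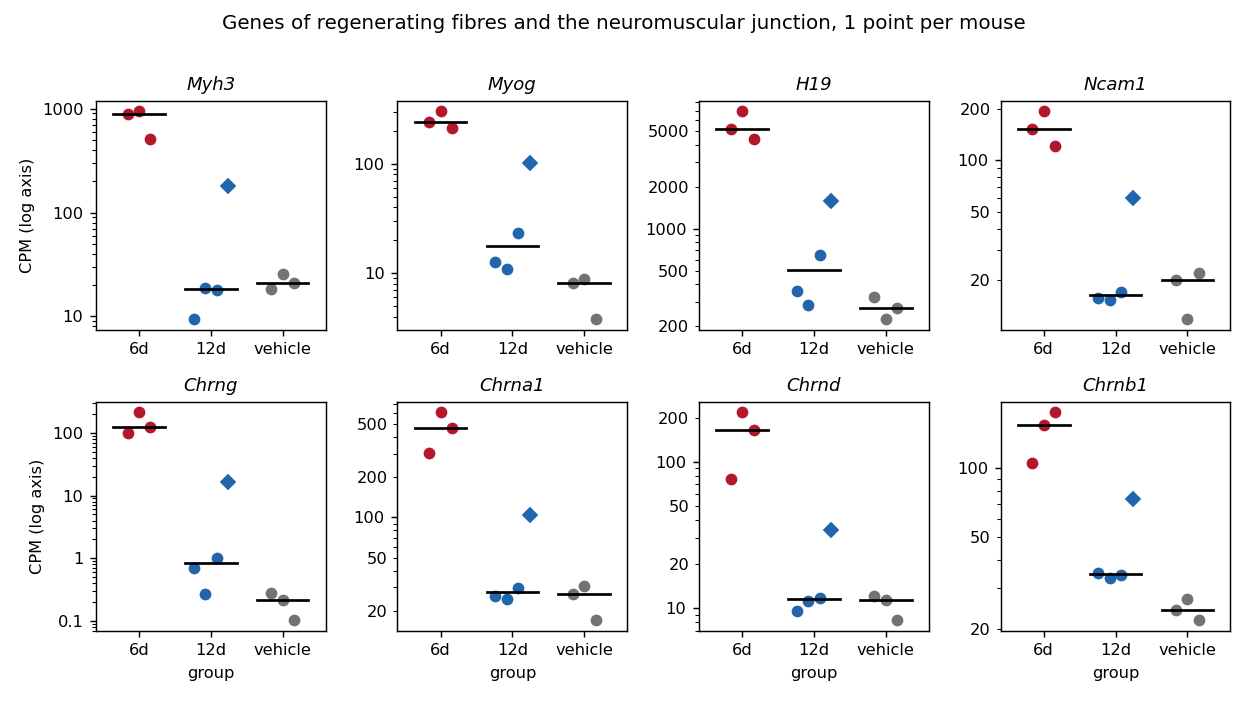
Levels in CPM on a log axis of 8 genes of regenerating fibres and of the neuromuscular junction, with 1 point per mouse and a bar at the group median, for 6d (n = 3), 12d (n = 4, replicate 4 as a diamond) and the vehicle mice (n = 3). For Chrng the 6d mice lie at 101 to 213 CPM, 12d replicates 1 to 3 at 0.268 to 1.02 CPM, and replicate 4 at 16.5 CPM.

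Several genes linked to stress were also lower at 12d, and the cells that made them cannot be told in whole muscle. Ankrd1, a stretch-responsive protein of the sarcomere, stood at 48.9, 207 and 136 CPM at 6d and at 3.71, 2.95, 3.91 and 22.5 CPM at 12d (log2 fold change -3.99, SE 0.82, adjusted p = 0.0178, and -5.21 without 12d replicate 4). Its relative Ankrd2 fell from 39.6–112 CPM to 12–29.7 CPM. Cdkn1a, the cell cycle inhibitor p21, stood at 439, 1780 and 1170 CPM at 6d and at 100, 132, 119 and 357 CPM at 12d (log2 fold change -2.68, SE 0.58, adjusted p = 0.0199, and -3.27 without 12d replicate 4). In these 3 genes the groups did not overlap, and in Ankrd1 and Cdkn1a replicate 1 was the lowest of the 6d mice. Gadd45a, a growth arrest gene that also rises in denervated muscle, had 71.7, 373 and 314 CPM and 20.6, 17.4, 18.3 and 59 CPM (log2 fold change -3.14, SE 0.64, adjusted p = 0.0177, and -3.75 without 12d replicate 4). Gdf15, a circulating stress hormone, had 10.2, 66.9 and 83.8 CPM at 6d and 0.636, 0.47, 1.2 and 3.82 CPM at 12d (log2 fold change -5.10, SE 0.88, adjusted p = 0.0129, and -6.11 without 12d replicate 4), and Fgf21, another one, had 4.76, 4.17 and 2.72 CPM at 6d and at most 0.336 CPM at 12d (log2 fold change -5.16, SE 0.76, adjusted p = 0.00954, and -6.52 without 12d replicate 2). The ubiquitin ligases of muscle atrophy did not share this pattern, since Fbxo32 (237 to 641 CPM at 6d, 224 to 577 CPM at 12d, adjusted p = 0.726) and Trim63 (200 to 522 and 111 to 298 CPM, adjusted p = 0.185) overlapped between the groups and did not pass. In the whole list of 30 atrophy and stress genes, 7 were lower and 3 were higher, together 33.3% beside 10.0% of all genes tested. Among the 3 was Ddit4, a glucocorticoid-induced inhibitor of growth signalling, at 27.6, 25.7 and 29 CPM and 46.8, 102, 83 and 74.8 CPM (log2 fold change 1.49, SE 0.25, adjusted p = 0.0119).

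Cell cycle genes fell. Of 45 tested cell cycle genes, 33 were lower and 0 were higher (median log2 fold change -2.04), and 36 were lower without replicate 4 (median -2.73). In 38 of them all late mice lay below all 6d mice, where this was so for 18.5% of all genes tested. With 7 libraries 73.3% of the list passed, beside 10.0% of all genes tested. Mki67, a marker of cycling cells, stood at 101, 93.6 and 52.3 CPM at 6d and at 11.8, 10.7, 11.8 and 41.3 CPM at 12d (log2 fold change -2.12, SE 0.50, adjusted p = 0.0245, and -2.84 without 12d replicate 4). Top2a, which untangles DNA in dividing cells, stood at 57.7, 59.3 and 32.1 CPM and 5.67, 5.5, 6.19 and 21.9 CPM (log2 fold change -2.34, SE 0.51, adjusted p = 0.0202, and -3.10 without 12d replicate 4). Replicates 1 to 3 of the 12d group were nearly alike in both genes, and replicate 4 lay between them and the 6d mice. The mitotic kinase genes Plk1 (log2 fold change -2.83, SE 0.48, adjusted p = 0.0123) and Melk (log2 fold change -3.18, SE 0.74, adjusted p = 0.0234, and -4.64 without 12d replicate 4) fell too. The vehicle mice were at 2.56 to 132 CPM for Mki67 and at 0.285 to 1.74 CPM for Melk.

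Macrophage genes fell, more clearly without replicate 4. Of 39 tested genes of macrophage identity, 16 were lower and 2 were higher with 7 libraries (median log2 fold change -2.09), and 34 were lower and 2 higher without replicate 4 (median -3.22). Their summed level was 2590 to 4910 CPM at 6d, 496 to 2130 CPM at 12d and 424 to 1160 CPM in the vehicle mice. With 7 libraries 46.2% of the list passed, beside 10.0% of all genes tested. The study had named some members of this list from the same libraries, so the count is not independent evidence of its direction. Cd68, a lysosomal protein of macrophages, stood at 92.5, 136 and 59.3 CPM at 6d and at 5.14, 3.89, 5.95 and 28.4 CPM at 12d (log2 fold change -3.15, SE 0.69, adjusted p = 0.0204, and -4.26 without 12d replicate 4). C3ar1, a complement receptor, stood at 68.1, 106 and 44.3 CPM and 2.92, 2.42, 4.57 and 28.8 CPM (log2 fold change -2.91, SE 0.84, adjusted p = 0.041, and -4.46 without 12d replicate 4). In both genes replicates 1 to 3 lay low and replicate 4 lay between them and the 6d mice. For Csf1r, the receptor for the macrophage growth factor, replicate 4 reached 106 CPM beside 25.2, 23 and 31.6 CPM in the other late mice and 112 to 194 CPM at 6d, and the gene passed only without it (adjusted p = 0.057 with and 0.000359 without). Emr1, which encodes the F4/80 antigen, behaved alike, at 48.6 to 80.9 CPM at 6d, 4.23 to 10.2 CPM in replicates 1 to 3 and 46.9 CPM in replicate 4 (adjusted p = 0.102 with and 0.000456 without). Arg1, an arginine-degrading enzyme of repair macrophages, was low in all 4 late mice, at 0.636, 1.68, 0.241 and 0.51 CPM against 9.95, 20.9 and 5.54 CPM at 6d (log2 fold change -4.0, SE 0.65, adjusted p = 0.0117, and -4.67 without 12d replicate 2 and -3.35 without 6d replicate 2). It did not pass without 6d replicate 2 (adjusted p = 0.0542). The vehicle mice spanned 0.139 to 31.9 CPM for Arg1, a range that holds all the 6d values.

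The 2 macrophage genes that rose were Retnla and Lyve1. Retnla, a secreted protein of alternatively activated macrophages, stood at 1.54, 1.66 and 3.37 CPM at 6d and at 17.3, 13.7, 31.6 and 16.3 CPM at 12d (log2 fold change 3.19, SE 0.43, adjusted p = 0.00846), with 28.9 to 37.2 CPM in the vehicle mice. Lyve1, a hyaluronan receptor of lymphatic vessels and of tissue-resident macrophages, stood at 2.5, 2.4 and 6.51 CPM and 7.58, 10.3, 9.26 and 17.7 CPM (log2 fold change 1.57, SE 0.44, adjusted p = 0.0384, and 2.20 without 6d replicate 3). All late mice lay above all 6d mice in both.

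The lysosomal and lipid-handling genes of repair macrophages included many that fell. Of 36 tested, 15 were lower and 1, Lpl, was higher, and 25 and 1 without replicate 4. With 7 libraries 44.4% passed, beside 10.0% of all genes tested. Gpnmb, a glycoprotein of phagocytosing macrophages, stood at 156, 237 and 86.3 CPM at 6d and at 4.66, 4.83, 11.5 and 42.1 CPM at 12d (log2 fold change -3.34, SE 0.79, adjusted p = 0.0246, and -4.51 without 12d replicate 4). Lgals3, a galactose-binding lectin, fell from 95.4–203 CPM to 11–55.3 CPM (log2 fold change -2.63, SE 0.57, adjusted p = 0.0199, and -3.44 without 12d replicate 4), and Hmox1, which breaks down haem, from 69–181 CPM to 8.79–24.9 CPM. The groups did not overlap in these 3 genes. Spp1, osteopontin, and Trem2, a lipid receptor, did not pass with 7 libraries (adjusted p = 0.0983 and 0.0561), and Trem2 passed without replicate 4 (log2 fold change -4.51, SE 0.38, adjusted p = 0.000342). In 12d replicates 1 to 3 Spp1 was at 79.2 to 116 CPM and in replicate 4 at 401 CPM, within the 271 to 643 CPM of the 6d mice, and it passed without replicate 4 (log2 fold change -2.33, SE 0.32, adjusted p = 0.000957). The 3 genes of the complement starter C1q, made mainly by macrophages, fell. C1qa, for example, went from 294, 386 and 196 CPM to 23.7, 20, 37.1 and 137 CPM (log2 fold change -2.43, SE 0.66, adjusted p = 0.0348, and -3.44 without 12d replicate 4). In the complement list as a whole, 7 of 19 tested genes were lower and 0 were higher, together 36.8% beside 10.0% of all genes tested.

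**Figure D3:**
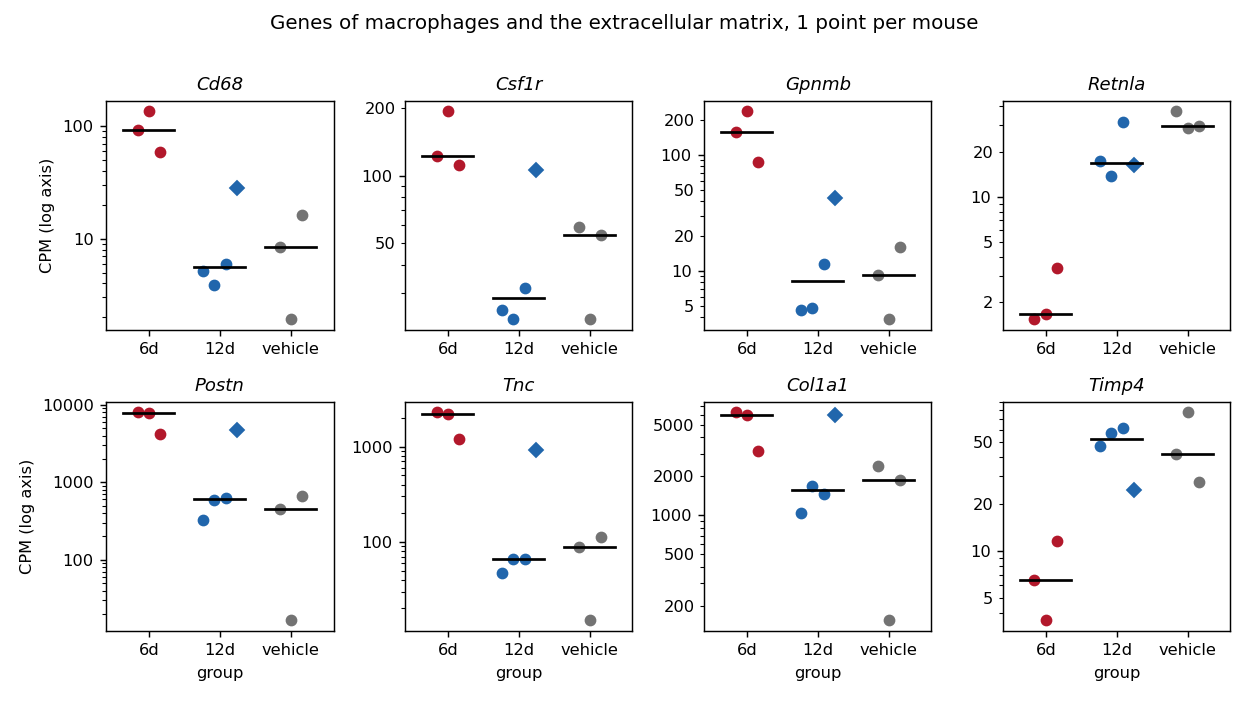
Levels in CPM on a log axis of 8 genes of macrophages and of the extracellular matrix, with 1 point per mouse and a bar at the group median, for 6d (n = 3), 12d (n = 4, replicate 4 as a diamond) and the vehicle mice (n = 3). For Col1a1 and Postn replicate 4 lies within the range of the 6d mice, at 5940 and 4660 CPM, while Retnla is higher in all 4 late mice than in all 6d mice.

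Chemokines and cytokines gave fewer calls than macrophage genes with all 7 libraries. Of 15 tested monocyte-recruiting chemokines and receptors, 1, Ccl3, was lower and 1, Ccrl2, was higher with 7 libraries, although 14 had a log2 fold change below 0. The calls made up 13.3% of the list, beside 10.0% of all genes tested. Without replicate 4, 14 were lower and 1 higher. Ccl3, which attracts monocytes, fell from 1.62–4.76 CPM to 0–0.662 CPM (log2 fold change -3.82, SE 0.84, adjusted p = 0.0201, and -5.62 without 12d replicate 4). Ccl2, the main ligand of the monocyte receptor Ccr2, was at 3.08, 9.56 and 1.8 CPM and 0.954, 1.07, 2.04 and 2.34 CPM and passed only without replicate 4 (adjusted p = 0.082 with and 0.0401 without). Of 37 tested inflammatory cytokines, Toll-like receptors and their partners, 11 were lower and 0 were higher, together 29.7% beside 10.0% of all genes tested. Il1b, the fever-inducing interleukin 1 beta, stood at 2.21, 7.61 and 5.13 CPM at 6d and at 0.318, 0.939, 0.481 and 1.99 CPM at 12d (log2 fold change -2.41, SE 0.63, adjusted p = 0.0313, and -3.14 without 12d replicate 4). Il1rn, its natural antagonist, stood at 6.15, 8.01 and 5.13 CPM and 0.265, 0.336, 0.18 and 2.8 CPM (log2 fold change -2.81, SE 0.81, adjusted p = 0.0407, and -4.61 without 12d replicate 4), so both the cytokine and its inhibitor fell. The receptor Il1r1 was at 28.5 to 43.1 CPM at 6d and at 24 to 30.8 CPM at 12d and did not pass (adjusted p = 0.0892). Members of both lists had also been named by the study from these libraries. Tlr9, the receptor for bacterial DNA, fell from 5.17–10.3 CPM to 0.403–2.65 CPM (log2 fold change -2.67, SE 0.59, adjusted p = 0.0208, and -3.59 without 12d replicate 4).

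In the lists of T cell, NK cell, B cell and antigen presentation genes 12.5%, 0%, 22.2% and 11.1% passed, beside 10.0% of all genes tested. The counts higher and lower were 1 and 1 of 16 tested T cell genes, 0 and 0 of 14 granzyme and NK cell genes, 1 and 1 of 9 B cell genes and 0 and 3 of 27 genes of antigen presentation. The T cell genes that passed were Il2ra (1.25) and Thy1 (-1.32), the B cell genes 2010001M09Rik (1.57) and Blnk (-1.41) and the antigen presentation genes H2-Oa (-2.70, and -3.30 without 12d replicate 4), Cd40 (-1.19) and Irf8 (-1.18), each with its log2 fold change. Without replicate 4 the lower ones numbered 4, 6, 4 and 15. Among all genes tested 7.59% were higher and 11.5% lower without this mouse. Cd4, the coreceptor of helper T cells, was at 4.99 to 9.27 CPM at 6d, at 0.537 to 1.62 CPM in 12d replicates 1 to 3 and at 6.52 CPM in replicate 4 (log2 fold change -1.61, SE 0.77, adjusted p = 0.144, and -2.93 without 12d replicate 4). Gzmd, a granzyme, was at 6.01, 5.13 and 2.86 CPM at 6d, had no count in 12d replicates 1 to 3 and was at 3.26 CPM in replicate 4, which lay within the 6d range, and it did not pass with 7 libraries (adjusted p = 0.18) but did without replicate 4 (adjusted p = 0.000584). H2-Aa, a chain of the MHC class II molecule that shows peptides to helper T cells, was at 122 to 173 CPM at 6d, 36.8 to 95 CPM in replicates 1 to 3 and 197 CPM in replicate 4 (adjusted p = 0.369 with and 0.0119 without replicate 4). Among 19 other chemokines and receptors 1, Ccl27a, was higher and 0 were lower, which is 5.26%. Ccl27a passed narrowly (log2 fold change 1.01, adjusted p = 0.0283) and lay under the fold threshold without replicate 4 (0.96, adjusted p = 0.0166). Of its windows of 50 bases, 64.6% recur elsewhere in the genome, so its values are uncertain. Of 30 tested interferon-stimulated genes 0 were higher and 0 were lower with edgeR on 7 libraries, and 7 were lower without replicate 4. At an unadjusted p under 0.05, edgeR gave 3 lower and 0 higher granzyme and NK cell genes and 2 lower and 0 higher interferon-stimulated genes, and DESeq2 called 0 of the former and 2 of the latter, all lower. The voom fit of limma with sample weights called 6 of each, all lower. Ifit2, which blocks translation of viral RNA, was at 22.7, 37.4 and 13.1 CPM at 6d and at 12.4, 11.9, 12.7 and 34 CPM at 12d, so replicate 4 lay among the 6d mice.

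Calls among matrix genes depended on replicate 4. Postn, periostin, a matrix protein of healing tissue, stood at 7960, 7740 and 4190 CPM at 6d, at 330, 593 and 629 CPM in 12d replicates 1 to 3 and at 4660 CPM in replicate 4. With 7 libraries it did not pass (log2 fold change -2.11, SE 0.89, adjusted p = 0.107, and -3.68 without 12d replicate 4), and without replicate 4 it did (log2 fold change -3.68, SE 0.38, adjusted p = 0.000438). Tnc, tenascin C, stood at 2290, 2200 and 1200 CPM at 6d and at 47, 65.4, 66 and 929 CPM at 12d (adjusted p = 0.0853 with and 0.000328 without replicate 4). The collagen I chains were alike. Col1a1 was at 6250, 5970 and 3130 CPM at 6d, at 1050, 1700 and 1460 CPM in replicates 1 to 3 and at 5940 CPM in replicate 4, within the 6d range. Col1a2 was at 5310, 5160 and 2970 CPM at 6d, at 1090, 1700 and 1560 CPM in replicates 1 to 3 and at 6500 CPM in replicate 4, above all 6d mice. Neither passed with 7 libraries (adjusted p = 0.227 and 0.382), and both passed without replicate 4 (adjusted p = 0.0026 and 0.00319). Of 37 tested collagen chains 4 were lower and 3 were higher, and 18 and 3 without replicate 4. For 48 matrix glycoproteins and crosslinking enzymes the counts were 8 and 2, and 33 and 2 without replicate 4. With 7 libraries 18.9% and 20.8% of these lists passed, beside 10.0% of all genes tested. Among all genes tested 7.59% were higher and 11.5% lower without replicate 4.

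Some matrix genes passed with all mice. Bgn, biglycan, a small proteoglycan, fell from 1650, 1760 and 1080 CPM to 143, 212, 240 and 902 CPM (log2 fold change -2.01, SE 0.61, adjusted p = 0.0459, and -2.92 without 12d replicate 4). Ltbp2, which binds microfibrils, fell from 32.6–68.4 CPM to 5.3–29.5 CPM (log2 fold change -2.13, SE 0.61, adjusted p = 0.0402, and -3.11 without 12d replicate 4). Col19a1, a minor collagen made by muscle cells during differentiation, stood at 15.1, 47.6 and 51.3 CPM and 2.76, 5.97, 2.41 and 9.38 CPM (log2 fold change -2.89, SE 0.56, adjusted p = 0.0165). Col22a1, a collagen of the muscle-tendon junction, rose from 16.1, 4.17 and 11.5 CPM to 47.8, 33.2, 40.9 and 39.5 CPM (log2 fold change 1.95, SE 0.40, adjusted p = 0.0178), and replicate 4 lay within the values of the other late mice. The other collagens that rose, Col2a1 (log2 fold change 3.24, and 1.92 without 12d replicate 4) and Col11a2 (1.96, and 1.11), are chains of cartilage. Fmod, fibromodulin, a proteoglycan that organizes collagen fibrils, rose from 85.1–150 CPM to 182–567 CPM (log2 fold change 1.57, SE 0.40, adjusted p = 0.0287).

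Of 34 tested matrix proteases and their inhibitors, 7 were lower and 3 were higher, and 18 and 4 without replicate 4. With 7 libraries 29.4% passed, beside 10.0% of all genes tested. Timp1, an inhibitor of metalloproteinases that rises in injury, stood at 82.7, 75.4 and 54.4 CPM at 6d and at 7.32, 8.32, 7.76 and 42.9 CPM at 12d (log2 fold change -2.10, SE 0.63, adjusted p = 0.0447, and -3.18 without 12d replicate 4). Its relative Timp4 moved the other way, from 6.49, 3.58 and 11.5 CPM to 47.1, 57.2, 61.3 and 24.4 CPM (log2 fold change 2.75, SE 0.47, adjusted p = 0.0129). The groups were apart in both. Mmp2, a gelatinase of fibroblasts, was at 385, 356 and 304 CPM at 6d, at 145, 197 and 281 CPM in replicates 1 to 3 and at 761 CPM in replicate 4, above all 6d mice (log2 fold change -0.01 with and -0.74 without replicate 4, adjusted p = 0.988 and 0.0302). Mmp13, a collagenase of cartilage and bone, and Mmp9, a gelatinase of neutrophils and osteoclasts, rose in all late mice, from 9.05–13.7 CPM to 44.9–225 CPM and from 7.07–19 CPM to 35.5–140 CPM (log2 fold change 3.16, SE 0.60, adjusted p = 0.0157, and 2.36 without 12d replicate 4, and log2 fold change 2.24, SE 0.57, adjusted p = 0.0289, and 1.56 without 12d replicate 4). The highest of the 12d values was in replicate 4 for both. The bone list, which holds both genes, summed to 409 to 852 CPM at 6d and to 421 to 1720 CPM at 12d, and its part in these results was not tested.

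Fibroblast genes did not move as a group, since 2 of 24 tested were higher and 2 were lower. Together 16.7% passed, beside 10.0% of all genes tested. Gsn, gelsolin, which severs actin filaments and is abundant in fibroblasts, rose from 386, 321 and 692 CPM to 1230, 1540, 1940 and 1360 CPM (log2 fold change 1.72, SE 0.34, adjusted p = 0.0167). Clec3b, tetranectin, rose from 22.1–37.1 CPM to 47.6–98.8 CPM. Thy1, a surface protein of activated fibroblasts and T cells, fell from 70.8–116 CPM to 23.5–68.3 CPM, and Cd248, endosialin, which marks fibroblasts of growing or injured tissue, from 82.9–98.9 CPM to 14.4–46.3 CPM (log2 fold change -1.80, SE 0.37, adjusted p = 0.0178). The general fibroblast marker Pdgfra was at 76.6 to 88.3 CPM at 6d, 43.1 to 63.2 CPM in replicates 1 to 3 and 128 CPM in replicate 4 (adjusted p = 0.677). Acta2, smooth muscle actin, also made by myofibroblasts and young muscle cells, fell from 462, 434 and 280 CPM to 130, 173, 163 and 155 CPM (log2 fold change -1.32, SE 0.21, adjusted p = 0.0107), with replicate 4 among the other late mice, while Myh11, myosin of vascular smooth muscle, rose from 35.4–56.4 CPM to 59.9–129 CPM (log2 fold change 1.10, SE 0.28, adjusted p = 0.0296).

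Genes of energy metabolism were among those that rose. Of 73 tested nuclear-encoded subunits of the respiratory chain 24 were higher and 1 was lower, 69 had a log2 fold change above 0, and the median was 0.92. In 56 subunits all late mice lay above all 6d mice, where this was so for 18.2% of all genes tested. The share of subunits that passed was 34.2%, beside 10.0% of all genes tested. Cox7a1, the muscle form of a cytochrome oxidase subunit, stood at 127, 64.7 and 135 CPM at 6d and at 321, 270, 377 and 229 CPM at 12d (log2 fold change 1.48, SE 0.31, adjusted p = 0.0178). Ndufa2 and Ndufa3, subunits of complex I, went from 69.9–89.9 CPM to 129–173 CPM and from 66.2–86.6 CPM to 117–184 CPM and missed the fold threshold, with adjusted p of 0.0129 and 0.0176, and both passed without replicate 4 (log2 fold changes 1.05 and 1.08, adjusted p = 0.000927 and 0.000948). Ndufa1 did not differ beyond its spread (85 to 121 and 86.2 to 109 CPM, adjusted p = 0.796). Some genes of this list share their sequence with copies elsewhere in the genome, and reads with more than 1 place were left out of the counts. Of the 50-base windows of the transcript, 61.5% recur elsewhere in build mm9 for Uqcrb (log2 fold change 1.85, SE 0.17, adjusted p = 0.0059), 41.3% for Ndufb4 (log2 fold change 2.25, SE 0.31, adjusted p = 0.00892) and 29.4% for Atp5g1 (log2 fold change 1.78, SE 0.29, adjusted p = 0.0119). The subunit that was lower, Cox8a (log2 fold change -1.21, SE 0.13, adjusted p = 0.00632), has 21.0%. Among the 69 members with under 50% of such windows, 22 were higher and 1 was lower, with a median of 0.92.

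Of 37 tested genes of fatty acid uptake and oxidation 13 were higher and 0 were lower (median 0.84). The share of the list that passed was 35.1%, beside 10.0% of all genes tested. Its members Lpl and Ivd had been picked by the study from the 6d mice, so the direction of the list has no independent support here. Lpl, the lipase that takes fatty acids from blood lipoproteins, stood at 436, 255 and 488 CPM at 6d and at 1400, 1450, 1610 and 726 CPM at 12d (log2 fold change 1.75, SE 0.37, adjusted p = 0.0186). Ppara, a receptor that switches on fatty acid oxidation, stood at 16.7, 6.13 and 18.1 CPM and 38.4, 39.1, 44.5 and 19.5 CPM (log2 fold change 1.40, SE 0.42, adjusted p = 0.0451). In both genes the groups were apart and replicate 4 was the lowest late mouse. Plin4, a coat protein of lipid droplets, rose from 21.7–78.1 CPM to 91.8–258 CPM (log2 fold change 1.80, SE 0.52, adjusted p = 0.041). Klf15, a glucocorticoid-responsive factor of lipid and amino acid use, rose from 30.6, 17.9 and 32.9 CPM to 82.7, 114, 80.1 and 48.5 CPM (log2 fold change 1.60, SE 0.33, adjusted p = 0.0176). Ivd, which degrades leucine, rose from 69.2–87.8 CPM to 139–318 CPM (log2 fold change 1.71, SE 0.30, adjusted p = 0.0134).

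For 30 genes of glycolysis and glycogen breakdown the counts were 3 higher and 2 lower with 7 libraries, and 17 and 2 without replicate 4 (medians 0.90 and 1.07). With 7 libraries 16.7% passed, beside 10.0% of all genes tested. Among all genes tested 7.59% were higher and 11.5% lower without replicate 4. Phkg1, the muscle subunit of the kinase that starts glycogen breakdown, stood at 168, 66.9 and 164 CPM at 6d and at 631, 588, 544 and 208 CPM at 12d (log2 fold change 1.91, SE 0.48, adjusted p = 0.0281). Hk2, the hexokinase of muscle, was at 253, 148 and 290 CPM at 6d, at 518, 517 and 524 CPM in replicates 1 to 3 and at 205 CPM in replicate 4, within the 6d range (adjusted p = 0.0976 with and 0.0048 without replicate 4). Hk1, the form of brain and many other tissues, had a log2 fold change of -0.62 and missed the fold threshold (adjusted p = 0.0447). Values for Pgk1 (log2 fold change 2.10, SE 0.30, adjusted p = 0.00907) and Pgam1 (log2 fold change -1.36, SE 0.40, adjusted p = 0.0413) are uncertain, because 92.9% and 91.9% of their windows recur elsewhere.

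**Figure D4:**
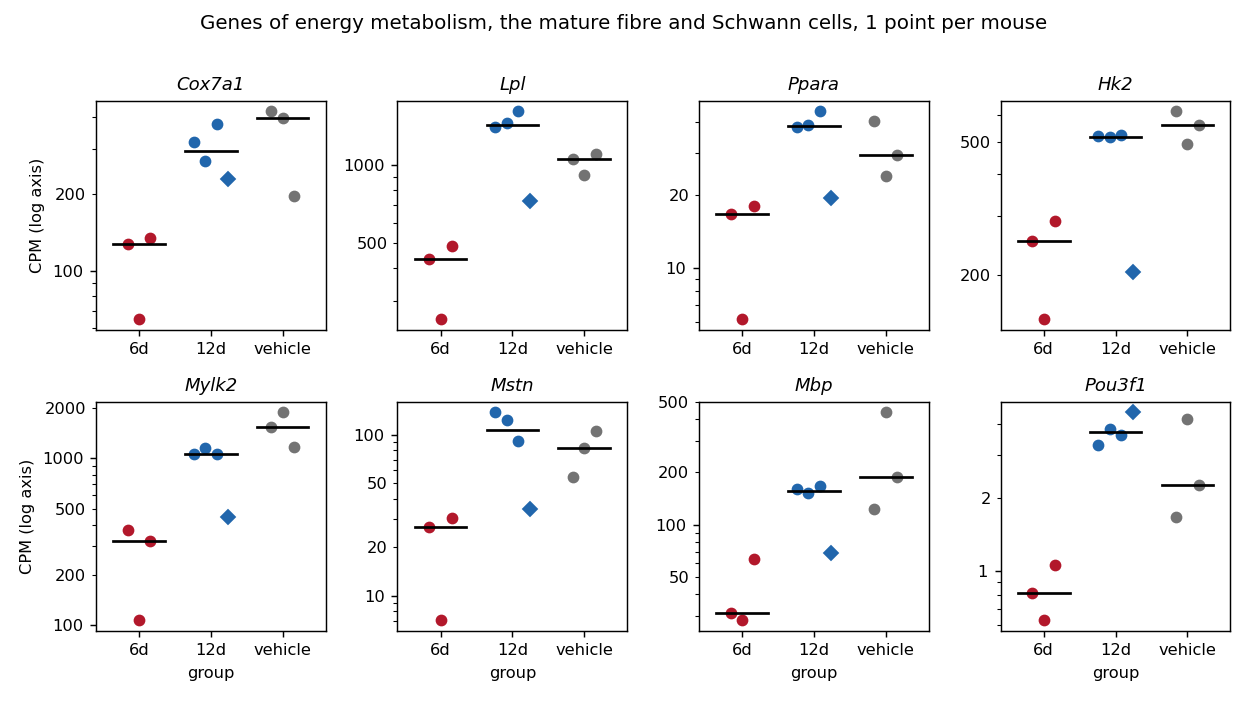
Levels in CPM on a log axis of 8 genes of energy metabolism, the mature fibre and Schwann cells, with 1 point per mouse and a bar at the group median, for 6d (n = 3), 12d (n = 4, replicate 4 as a diamond) and the vehicle mice (n = 3). In Lpl, Mylk2 and Mbp replicates 1 to 3 of the 12d group lie above all 6d mice, and replicate 4 is the lowest late mouse.

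The contractile genes of the mature fibre moved in both directions. Of 46 tested sarcomere genes 6 were higher and 4 were lower, and 16 and 10 without replicate 4. With 7 libraries 21.7% passed, beside 10.0% of all genes tested. The study had named several of these genes as lowered after 10U of Col. Among those that rose was Mylk2, the kinase of the fast myosin light chain, at 372, 107 and 320 CPM at 6d and 1070, 1160, 1070 and 443 CPM at 12d (log2 fold change 1.84, SE 0.51, adjusted p = 0.0366). Myoz1 and Myoz3, calcineurin-binding proteins of the Z-disc of fast fibres, rose from 586–1420 CPM to 1760–4040 CPM and from 38.5–169 CPM to 211–522 CPM. Their relative of slow fibres, Myoz2, fell from 86.5, 71.9 and 90.4 CPM to 13.7, 15.9, 29.3 and 55.2 CPM (log2 fold change -1.54, SE 0.44, adjusted p = 0.0391), as did Myom3, an M-band protein, from 318–737 CPM to 152–220 CPM. The alpha-actinins Actn2 (630 to 1130 CPM at 6d, 724 to 1200 CPM at 12d) and Actn3 (3100 to 3960 and 2050 to 4930 CPM) overlapped between the groups (adjusted p = 0.935 and 0.933). Acta1 was at 25000 to 33000 CPM in 12d replicates 1 to 3, above the 6d mice, and at 13100 CPM in replicate 4 (adjusted p = 0.166 with and 0.0185 without). Of 10 tested myosin heavy chains 0 were higher and 1 was lower with 7 libraries, the lower one being Myh3. That is 10.0%, the same share as among all genes tested. The adult fast forms Myh1 and Myh2 did not pass (adjusted p = 0.656 and 0.533). In the list of 28 genes of excitation and calcium release 3 were higher and 0 were lower. That is 10.7%, near the 10.0% of all genes tested. Without replicate 4 the counts were 9 and 2, where 7.59% and 11.5% of all genes tested were higher and lower. Ryr1, the calcium release channel, was at 1910 to 2430 CPM at 6d, 3570 to 4370 CPM in replicates 1 to 3 and 1840 CPM in replicate 4 (adjusted p = 0.17). Mstn, myostatin, which restrains muscle growth, rose from 26.6, 7.02 and 30.4 CPM to 138, 123, 91.2 and 34.5 CPM (log2 fold change 2.21, SE 0.62, adjusted p = 0.0375).

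Genes of Schwann cells were among those that rose. Of 28 tested genes of Schwann cells and peripheral myelin 11 were higher and 1, Gdnf, was lower (median 0.97), and 15 and 3 without replicate 4. With 7 libraries 42.9% passed, beside 10.0% of all genes tested. Mbp, myelin basic protein, stood at 31.2, 28.4 and 63.8 CPM at 6d and at 159, 151, 167 and 68.9 CPM at 12d (log2 fold change 1.75, SE 0.41, adjusted p = 0.024). Prx, periaxin, which anchors the myelinating Schwann cell, stood at 15.7, 8.35 and 19.8 CPM and 62.3, 57, 64.5 and 30.7 CPM (log2 fold change 1.90, SE 0.37, adjusted p = 0.016). Pou3f1, a factor of promyelinating Schwann cells, rose in all late mice including replicate 4, from 0.817, 0.628 and 1.06 CPM to 3.29, 3.82, 3.61 and 4.48 CPM (log2 fold change 2.19, SE 0.27, adjusted p = 0.00768). The vehicle mice were at 122 to 437 CPM for Mbp and at 62.5 to 154 CPM for Prx.

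Of 27 tested mediators and receptors linked to pain 4 were lower and 1 was higher, together 18.5% beside 10.0% of all genes tested. Gdnf, a growth factor for nociceptive and motor neurons, fell from 5.77, 11.2 and 16.6 CPM to 2.07, 2.82, 1.68 and 4.18 CPM (log2 fold change -2.05, SE 0.41, adjusted p = 0.0174). Ptgs2, the inducible enzyme of prostaglandin synthesis, fell from 4.66, 10.3 and 5.03 CPM to 0.53, 2.21, 1.08 and 3.47 CPM (log2 fold change -1.87, SE 0.57, adjusted p = 0.0473), and P2rx4, an ATP-gated channel also made by macrophages, from 36–56.8 CPM to 10.9–33.9 CPM (log2 fold change -1.25, SE 0.36, adjusted p = 0.0388). The vehicle mice spanned 11.2 to 68.8 CPM for P2rx4, a range that holds all the 6d values. The gene that rose was Calca, which encodes calcitonin and the neuropeptide CGRP, at 0.192, 0.332 and 0.185 CPM at 6d and at 5.35, 3.36, 1.32 and 0.917 CPM at 12d (log2 fold change 3.49, SE 0.74, adjusted p = 0.0189), where the vehicle mice had 0 to 0.214 CPM. At 6d the values of Calca rest on few reads. Bdnf, a growth factor for sensory neurons, was at 2.07, 2.4 and 4.39 CPM and 1.86, 1.95, 1.86 and 2.96 CPM (log2 fold change -0.44, SE 0.33, adjusted p = 0.325) and did not pass. Gal, the neuropeptide galanin, was among the 10 genes with the largest fall, from 32.4, 31.6 and 13.8 CPM to 0.954, 0.939, 2.04 and 1.27 CPM (log2 fold change -4.29, SE 0.40, adjusted p = 0.0059), with replicate 4 among the other late mice.

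Of the vessel, fat, clock and early response genes 16.7%, 6.06%, 15.8% and 17.4% passed, beside 10.0% of all genes tested. Of 30 tested vascular genes 4 were higher, Lyve1, Myh11, Rgs5 and Esm1, and 1, Acta2, was lower. Esm1 lay under the fold threshold without replicate 4 (log2 fold change 1.13 with and 0.92 without). The general endothelial genes Pecam1 (174 to 209 CPM at 6d, 213 to 282 CPM at 12d) and Cdh5 (238 to 282 and 302 to 370 CPM) were slightly higher in all late mice without passing (adjusted p = 0.164 and 0.134), whereas the pericyte gene Rgs5 rose from 116, 98.6 and 144 CPM to 252, 303, 281 and 236 CPM (log2 fold change 1.18, SE 0.18, adjusted p = 0.0107). Among 33 tested adipocyte genes 2, Plin4 and Cox7a1, were higher and 0 were lower. Of 19 tested clock genes 3, Per1, Cry1 and Nfil3, were higher and 0 were lower. Per1 stood at 14.6, 15.7 and 18.5 CPM at 6d and at 34.8, 71.3, 61.6 and 46.6 CPM at 12d (log2 fold change 1.73, SE 0.25, adjusted p = 0.00954) and Cry1 at 11.3, 9.49 and 12.4 CPM and 38.2, 27.1, 34.6 and 18.6 CPM (log2 fold change 1.44, SE 0.27, adjusted p = 0.015), both repressors of the clock. Arntl, the activator, went from 25.1–38.9 CPM to 41.5–54.3 CPM and missed the fold threshold (adjusted p = 0.0303). The hour of dissection was not given in the sources used here, and its part in these values was not tested. Of 23 early response genes 2 were higher and 2 were lower. The higher ones were Klf2 (from 21.1–37.6 CPM to 51.9–217 CPM, log2 fold change 2.18, SE 0.47, adjusted p = 0.0198) and Klf4 (from 16.2–25.5 CPM to 31–81.5 CPM), factors of quiescent endothelium, among other cells, and the lower ones were Egr3 (log2 fold change -2.13, SE 0.66, adjusted p = 0.0487, and -2.90 without 12d replicate 4 and -1.43 without 6d replicate 2) and Myc (from 18.9–26.7 CPM to 6.52–9.89 CPM, log2 fold change -1.49, SE 0.18, adjusted p = 0.00767), a driver of growth. Egr3 did not pass without 6d replicate 2 (adjusted p = 0.214). Fos was at 24.1 to 96.5 CPM and 12.5 to 77.2 CPM (adjusted p = 0.514).

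Markers of tissues around the muscle also differed between the groups. Bone genes gave 8 of 17 tested members higher and 0 lower with 7 libraries (median log2 fold change 1.99), and 7 and 2 without replicate 4 (median 1.09). The share that passed with 7 libraries was 47.1%, beside 10.0% of all genes tested. Osteocalcin Bglap had 1 to 2 counts in each 6d library and stood at 9.81, 9.93, 9.02 and 59.2 CPM at 12d (adjusted p = 0.00915 with and 0.000163 without replicate 4). The ratio of 12d to 6d was 408 (95% exact interval 159 to 1500.0, for counting error only) with 7 libraries and 167 (64.7 to 614) without replicate 4, with 1.78 to 20.2 CPM in the vehicle mice. Reads of Bglap are shared with its copy Bglap2, as 46.0% of its windows recur elsewhere. Sp7, the factor of osteoblasts, stood at 1.49, 0.775 and 1.02 CPM at 6d and at 5.62, 7.05, 4.69 and 13 CPM at 12d (log2 fold change 2.80, SE 0.42, adjusted p = 0.00997). Ibsp, bone sialoprotein, was at 30.1, 0.48 and 1.94 CPM and 39, 35.3, 30.5 and 124 CPM, and did not pass (adjusted p = 0.155). Among 19 tendon and cartilage genes 6 were higher and 0 were lower with 7 libraries (median log2 fold change 1.37), and 6 and 5 without replicate 4 (median 0.62). Their summed level was highest in replicate 4, at 2890 CPM, against 1360 to 1530 CPM at 6d. With 7 libraries 31.6% of these genes passed, beside 10.0% of all genes tested. Tnmd, tenomodulin of tendon cells, was at 10.6, 16.6 and 14.2 CPM at 6d, at 7.47, 22.7 and 15.6 CPM in replicates 1 to 3 and at 114 CPM in replicate 4, while Scx, an early tendon factor, was at 32.2 to 43.2 CPM at 6d, 13 to 16.6 CPM in replicates 1 to 3 and 32.9 CPM in replicate 4 (adjusted p = 0.2 and 0.0526). Without replicate 4 Scx passed as lower (log2 fold change -1.34, adjusted p = 0.000497) and Tnmd did not pass (log2 fold change 0.14, adjusted p = 0.768). The dissection was meant to leave out the tendons, and the share of bone and tendon in the pieces was not tested. Of 20 tested genes of keratins and skin 1, Ppl, was higher (1.77) and 2, Sprr1a and Trp63, were lower (-2.82 and -1.21).

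Most of the red blood cell genes were higher too. Of 7 tested genes of red blood cells 5 were higher and 0 were lower, together 71.4% beside 10.0% of all genes tested. Slc4a1, the anion exchanger of red cells, stood at 0.0961, 0.258 and 0.554 CPM at 6d and at 12.7, 9.6, 5.95 and 18.8 CPM at 12d (log2 fold change 5.25, SE 0.60, adjusted p = 0.00672, and 5.95 without 6d replicate 3). The vehicle mice spanned 0.499 to 145 CPM for Slc4a1. Of 15 tested neutrophil genes 4 were higher and 0 were lower, and 4 and 2 without replicate 4. The share that passed with 7 libraries was 26.7%, beside 10.0% of all genes tested. S100a9 stood at 1.63, 1.07 and 2.54 CPM at 6d and at 21.4, 6.24, 4.99 and 57.1 CPM at 12d (log2 fold change 3.68, SE 0.94, adjusted p = 0.0291, and 2.66 without 12d replicate 4) and its partner S100a8 at 2.84, 3.62 and 6.79 CPM and 13.6, 3.29, 3.25 and 33.1 CPM (log2 fold change 1.59, SE 0.84, adjusted p = 0.176, and 0.62 without 12d replicate 4), which did not pass. Mpo, made in the marrow by neutrophil precursors, was at 0.0924 to 0.529 CPM at 6d, 0.18 to 2.65 CPM in 12d replicates 1 to 3 and 13.8 CPM in replicate 4, and it did not pass (adjusted p = 0.0716 with and 0.0773 without replicate 4). In the vehicle mice S100a9 ranged from 4.27 to 468 CPM, more widely than in the 7 mice. Their place in blood, marrow or muscle was not tested.

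**Figure D5:**
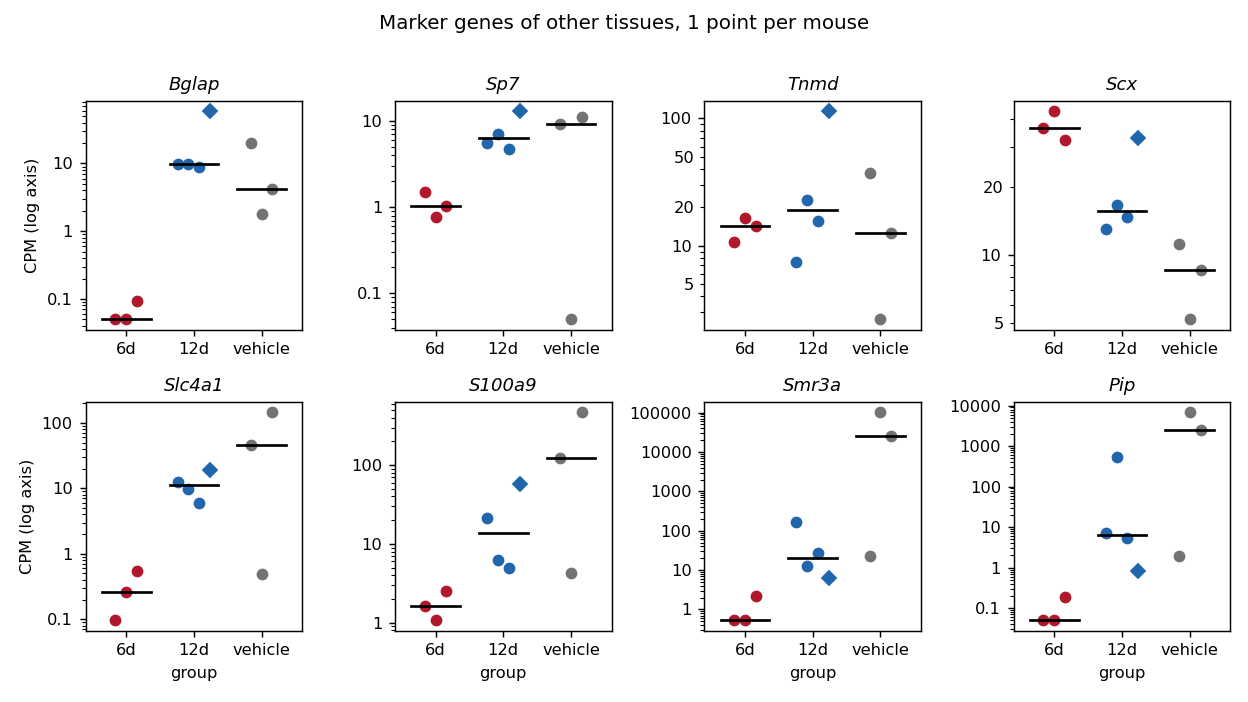
Levels in CPM on a log axis of 8 marker genes of bone, tendon, red blood cells, neutrophils and salivary gland, with 1 point per mouse and a bar at the group median, for 6d (n = 3), 12d (n = 4, replicate 4 as a diamond) and the vehicle mice (n = 3). Values under 0.05 CPM are drawn at 0.05 CPM. Replicate 4 is the highest late mouse for the markers of bone, tendon, red blood cells and neutrophils and the lowest for those of salivary gland.

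The genes with the largest rise among those whose groups did not overlap were secretory genes of salivary and nasal glands and the bone and red cell genes above. Smr3a, a salivary protein, stood at 0.529, 0.554 and 2.22 CPM at 6d and at 168, 13.1, 27.2 and 6.17 CPM at 12d (log2 fold change 5.64, SE 1.42, adjusted p = 0.028, and 3.84 without 12d replicate 1 and 6.62 without 6d replicate 3), and the 3 vehicle mice had 23 to 102000 CPM. It did not pass without 6d replicate 3 (adjusted p = 0.0574). Pip, the prolactin-induced protein of saliva, was at 0 to 0.185 CPM at 6d and at 7.16, 551, 5.47 and 0.815 CPM at 12d (log2 fold change 10.81, SE 3.24, adjusted p = 0.0441, and 5.85 without 12d replicate 2 and 10.15 without 6d replicate 2 and 12.32 without 6d replicate 3). It did not pass without 6d replicate 2 (adjusted p = 0.154) or 6d replicate 3 (0.101). The odorant-binding protein gene Obp1a had at most 3 counts in each 6d library and stood at 2.28, 4040, 7.1 and 3.77 CPM at 12d, far higher in replicate 2 than in the other mice. It passed with and without that mouse (adjusted p = 0.0465 and 0.032), but not without 6d replicate 1 (0.125) or 6d replicate 2 (0.159). Of 7 tested salivary genes 4 were higher and 0 were lower, together 57.1% beside 10.0% of all genes tested. Replicate 4 had the lowest values of the 4 late mice for Smr3a and Pip, the reverse of the bone genes, and the salivary list summed to 35.1 to 82.3 CPM at 6d, 76.2 to 791 CPM at 12d and 178 to 265000 CPM in the vehicle mice. Whether glandular tissue was dissected with the muscle was not tested.

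The genes with the largest fall were Ear5, Orm2, Gdf5, Fgf21, Gdf15, Chrng, Stac2, Rnase1, Igfbp2 and Gal. Orm2, an acute-phase plasma protein, stood at 2.64, 9.75 and 10.2 CPM at 6d and had 0 to 2 counts in each late library, a ratio of 6d to 12d of 109 (95% exact interval 46.2 to 336, for counting error only, adjusted p = 0.00653). Gdf5, a growth factor known to be induced in denervated muscle, stood at 1.87, 14.5 and 20 CPM and 0.159, 0.0671, 0.18 and 0.713 CPM (log2 fold change -5.35, SE 0.92, adjusted p = 0.0129, and -6.39 without 12d replicate 4). The vehicle mice spanned 0 to 8.69 CPM for Gdf5. Stac2, an adaptor of the voltage-gated calcium channel, stood at 24.4, 114 and 51.6 CPM at 6d and at 0.689, 0.604, 1.14 and 5.5 CPM at 12d (log2 fold change -4.96, SE 0.84, adjusted p = 0.0123, and -6.27 without 12d replicate 4 and -4.23 without 6d replicate 2), where the vehicle mice had 0.0712 to 1.07 CPM. Igfbp2, which binds insulin-like growth factors, stood at 19.5, 189 and 180 CPM and 2.33, 3.96, 3.97 and 10.9 CPM (log2 fold change -4.62, SE 0.82, adjusted p = 0.0142, and -5.25 without 12d replicate 4). Stac2 did not pass without 6d replicate 2 (adjusted p = 0.057). In Gdf5, Gdf15, Igfbp2 and Stac2 replicate 1 was the lowest of the 6d mice, and in Gdf5, Gdf15 and Igfbp2 the other 6d mice were several times higher. Ear5, an eosinophil-associated ribonuclease, was at 0.481, 3.25 and 1.75 CPM at 6d and had no count at 12d, at least 10.5-fold lower than at 6d when set against the floor of 3 counts per library (adjusted p = 0.0217). It did not pass without 6d replicate 2 (adjusted p = 0.0747).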

How the data were processed

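RNA was sequenced from the MM of 31 male mice, of which 7 are compared here. Per the labels and the methods of the study, poly(A) RNA was made into stranded TruSeq libraries and read as single ends of 50 bases on an Illumina HiSeq. The submitters' processing notes name bcl2fastq, TopHat2, HTSeq and build mm9, without versions. The deposited values are raw counts of reads per gene, and the 5 closing lines per file, which name no gene, were left out. Reads on genes ranged from 14843778 to 21951332 in the 7 libraries, and counting error limits genes near the floor of 3 counts per library. A gene was tested if 3 or more of the 7 libraries held 10 or more of its reads, with edgeR 4.0.16 (R 4.3.3), TMM scaling, a quasi-likelihood test and Benjamini-Hochberg adjustment over all genes. The thresholds on adjusted p (0.05), fold change (2) and mean RPKM (1) are those of the study. RPKM used exon lengths of GENCODE vM1, where 930 of 22609 symbols had no match and took the median of 2838 bases. The standard error of a log2 fold change was taken from its F statistic.

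Groups came from the sample titles. The labels do not say more of the replicates than that they are separate mice, and p-values measure the spread between them. The same-numbered mice of the groups did not deviate together, so the numbers name mice and do not pair them. No 2 libraries of a group agreed within counting error. The 37 gene lists and the choice of groups were made with earlier results of these data known. The text names the 10 largest changes in each direction without overlap, up to 4 members of each list in each direction, and up to 3 of the first 8 members of each list. The alternatives were no count filter, DESeq2 scaling, DESeq2 1.42.0, a replicate block, 1 fit over 31 libraries, no RPKM threshold, each library left out, and limma 3.58.1 voom with sample weights, the last chosen after seeing the data. The fits were tested on simulated data. Some genes that this rule names are not reported here.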

Additional observations from a re-analysis of the deposited data

Results flagged for a closer look

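A mouse of the 12d group lay far from the other 3 in 34 of the 166 genes named, by a gap to its nearest neighbour that took up more of the whole range of the group than Dixon's 95% critical value for 4 samples allows, on the log2(CPM + 0.5) scale. Chance gives about 1 in 20 such groups. In 31 of these genes the mouse was replicate 4. With the gap as a share of the range, it lay above the other 3 mice in Ankrd1 (0.871), Bdnf (0.901), Bglap (0.95), Bglap2 (0.833), Cd40 (0.989), Chrna1 (0.867), Chrnb1 (0.936), Chrnd (0.838), Gadd45a (0.861), Gzmd (1.0), Ifit2 (0.938), Il1r1 (0.863), Il1rn (0.87), Ltbp2 (0.881), Mki67 (0.928), Ncam1 (0.923), Timp1 (0.929), Tnc (0.887), Top2a (0.917) and Trem2 (0.83). It lay below them in Arntl (0.888), Cpt1b (0.836), Hk2 (0.985), Il2ra (0.852), Ivd (0.844), Mbp (0.887), Mylk2 (0.919), Myod1 (0.891), Phkg1 (0.865), Plin4 (0.863) and Prx (0.833). 

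Of the 37 lists, 3 were set apart by replicate 4 in their mean log2 level, the neuromuscular junction (0.953), glycolysis (0.867) and bone (0.868). In the remaining genes the mouse was replicate 1 for 2010001M09Rik (0.835) and replicate 2 for Ccl27a (0.946) and Obp1a (0.862). The cause of the place of replicate 4 was not tested.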

How the results depend on the processing

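Without a count filter 624 genes were higher and 728 lower, with DESeq2 size factors in edgeR 685 and 727, with DESeq2 853 and 983, with 1 fit over all 31 libraries 638 and 840, and without the RPKM threshold 845 and 892, against 681 and 757 with edgeR on 7 libraries. These counts lay within 1.5 times of the main ones. A replicate block gave 1190 higher and 1571 lower, but the numbers do not pair the mice, and 12d replicate 4 has no partner at 6d and carries no weight in that fit. Of its 2761 calls 1418 were shared with the 1438 of the 7 libraries. The correlations of the deviations of same-numbered mice were 0.0172, -0.0413 and -0.125. The voom fit of limma with sample weights, in which 12d replicate 4 had a weight of 0.191, gave 1150 and 1597, with 1403 of its 2747 calls shared. Leaving out 1 library gave between 62 and 1089 higher and between 71 and 1656 lower genes, lowest without 6d replicate 2 and highest without 12d replicate 4. No named gene that passed with 7 libraries changed sign under any alternative run. The cause of these shifts was not tested, other than that leaving out a library leaves fewer samples. With 3 mice at 6d, and with replicate 4 widening the spread at 12d, a gene that did not pass is not shown to be equal in the groups. Genes near 3 counts per library, transcripts with copies elsewhere in the genome and genes with an overlapping neighbour are the least certain values.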

Other observations

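Further members of the lists passed in the same comparison. Chodl, chondrolectin, a marker of a type of motor neuron that muscle also makes, rose from 5.05, 2.92 and 7.16 CPM at 6d to 12.1, 20.8, 15.8 and 36.6 CPM at 12d (log2 fold change 2.09, SE 0.44, adjusted p = 0.0186). Kcna7, a potassium channel of muscle and heart, rose from 38.1–119 CPM to 140–287 CPM (log2 fold change 1.36, SE 0.43, adjusted p = 0.0499) and Pln, phospholamban, the brake of the calcium pump in slow and heart muscle, from 1.77–3.88 CPM to 4.13–10.5 CPM (log2 fold change 1.45, SE 0.39, adjusted p = 0.0342). Cpt1b, which admits fatty acids to the mitochondria of muscle, rose from 1.77–4.43 CPM to 4.99–8.22 CPM (log2 fold change 1.14, SE 0.35, adjusted p = 0.0466). Hspb7, a small heat shock protein of muscle, fell from 896–1680 CPM to 377–642 CPM (log2 fold change -1.53, SE 0.31, adjusted p = 0.0171) and Mt2, a metal-binding stress protein, from 28–50.2 CPM to 10.5–21 CPM (log2 fold change -1.50, SE 0.27, adjusted p = 0.0143).

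Leukocyte genes that fell include Adam8, a membrane protease, at 30.9, 48.8 and 14.6 CPM at 6d and 2.33, 1.48, 3.07 and 9.53 CPM at 12d (log2 fold change -2.93, SE 0.64, adjusted p = 0.0201, and -3.77 without 12d replicate 4), and Itgb2, the beta chain of leukocyte integrins, at 37.7, 59.4 and 31.2 CPM and 5.3, 3.96, 7.46 and 22 CPM (log2 fold change -2.14, SE 0.56, adjusted p = 0.0304, and -2.94 without 12d replicate 4). Neutrophil granule genes moved the other way. Ltf, lactoferrin, stood at 0.529, 0.332 and 0.877 CPM at 6d and at 5.99, 68.2, 1.32 and 11.3 CPM at 12d (log2 fold change 5.23, SE 1.41, adjusted p = 0.0342, and 3.42 without 12d replicate 2), and Camp, a bactericidal peptide, at 1.06, 0.222 and 0.877 CPM and 8.91, 5.64, 3.73 and 14.1 CPM (log2 fold change 3.52, SE 0.63, adjusted p = 0.0144). Tendon and cartilage genes that rose include Mkx, a tendon transcription factor, from 2.03–4.16 CPM to 6.31–13.7 CPM (log2 fold change 1.46, SE 0.35, adjusted p = 0.025), Cilp2, a cartilage matrix protein, from 1.15–4.53 CPM to 11.1–38.4 CPM (log2 fold change 2.92, SE 0.60, adjusted p = 0.0178, and 3.59 without 6d replicate 3), and Angptl7 from 2.84–5.69 CPM to 8.53–23.1 CPM (log2 fold change 1.66, SE 0.42, adjusted p = 0.028). Tgfbi, a matrix protein induced by TGF-beta, fell from 144–249 CPM to 33.4–115 CPM (log2 fold change -1.87, SE 0.44, adjusted p = 0.0246, and -2.47 without 12d replicate 4).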
